A study of Mus musculus with 11 samples.

Results

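The miR-15/16 family was followed across normal mammary glands of 3 mouse strains and across C3(1)/Tag mammary tumors. Members were the plus-strand mouse spots of the custom miRNA array that are named mmu-miR-15a, mmu-miR-15b, mmu-miR-16, mmu-miR-195 or mmu-miR-497 (mmu for mouse, left out from here on), which gave 5 of the 334 mouse miRNAs and 20 of the 1336 spots, 4 for each miRNA. The glands came from pregnant females of the FVB (2 arrays), Balb/C (3 arrays) and FVB129B6 (3 arrays) strains. The labels call them normal mammary tissue and name no transgene. The 3 tumors were primary mammary tumors of FVB mice that carry the SV40 T/t antigens behind the C3(1) sequence of the rat prostatic steroid binding protein, which is active in mammary ductal cells. The glands were taken late in pregnancy, when the tissue is rich in epithelium. Tumors and glands therefore differ in transgene and in tissue makeup. Whether the tumor mice were pregnant is not stated. In whole tissue, fewer cells of a type and less of a miRNA per cell cannot be told apart. The titles of 2 Balb/C arrays, replicates 2 and 3, differ by L and R only and could name 2 glands of 1 mouse, and nothing else in the labels says whether arrays of a group came from separate mice, so p-values measure the spread between these samples.

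A miRNA recognises its targets mainly through its seed, bases 2 to 8 from its 5′ end. The miR-15/16 family is known as a brake on the cell cycle: its members repress D- and E-type cyclins and the kinases that drive entry into S phase, and miR-15a and miR-16 repress the survival factor Bcl2. SV40 large T antigen binds and inactivates p53 and the retinoblastoma protein, which act on the same cell cycle step. The study profiled the strains because the mouse models it compares have different backgrounds. The comparisons ask whether family members differ between these backgrounds, and between tumors and glands.

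The mature sequences, from RefSeq (GRCm38.p6), are shown because they define the family and show how near the probes are to each other. Capitals mark the seed, which was the same in all 5.
miR-15a: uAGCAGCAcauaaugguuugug
miR-15b: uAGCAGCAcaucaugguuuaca
miR-16: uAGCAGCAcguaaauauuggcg
miR-195: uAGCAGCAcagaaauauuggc
miR-497: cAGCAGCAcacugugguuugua
All 5 members matched a RefSeq entry (miR-195 and miR-497 are now called miR-195a-5p and miR-497a-5p), and each probe begins with the complement of the whole mature sequence. The seed AGCAGCA is shared by 10 of the 1679 mature mouse miRNAs in the RefSeq table and by 6 miRNAs of the array, the 5 members and miR-424, which RefSeq lists as miR-322-5p (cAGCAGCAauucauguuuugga). Over the first 22 bases the probes of miR-15a and miR-15b, and those of miR-16 and miR-195, lie 4 base edits apart. Other pairs within 6 edits are miR-15a with miR-497 (5), miR-15a with miR-16 (6) and miR-15b with miR-497 (6), and miR-424 lies 6 edits from both miR-15b and miR-497. How much of one member binds the probe of another was not tested.

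The genes lie in 3 clusters. Mir15a (chr14:61632075-61632096, minus strand) and Mir16-1 (chr14:61631936-61631957, minus strand) lie 139 bases apart, both within the span of Dleu2, a long non-coding RNA gene. Mir15b (chr3:69009775-69009796, plus strand) and Mir16-2 (chr3:69009918-69009939, plus strand) lie 143 bases apart within the span of Smc4, which encodes a condensin subunit. Mir497 (chr11:70234730-70234751, plus strand) and Mir195a (chr11:70235062-70235082, plus strand) lie 332 bases apart with no other gene of the table spanning them. These positions are of the mature sequences in GRCm38.p6, and the distances are between their first listed coordinates. The table used gives gene spans and not exons. Mir16-1 and Mir16-2 give the same mature miR-16, so 1 set of spots measures both loci.

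Levels are log2 green intensities with the array's median over the 1336 spots subtracted, so that 0 is the median spot of an array. A miRNA was called well above background on an array when at least 50% of its 4 spots were. Between 209 and 262 of the 334 miRNAs passed in the glands and 15 to 64 in the tumors. In intensity the median spot was dimmer on the FVB arrays (188.5 and 245.5 intensity units) than on the other gland arrays (508 to 671.5). The median spot of the tumor arrays, at 125 to 170, was close to the probes of random 22-base sequence, at 114 to 159.5, so a level near 0 there is background. Those random probes read 14.4 to 21.9 on the gland arrays. All 7 epithelial marker miRNAs (the miR-200 family, miR-141, miR-429, miR-203 and miR-205) passed on each of the 8 gland arrays, and 1 to 4 of them on each tumor array. All glands were on 1 slide, and all tumors on another that was scanned separately and read with another version of the program, so tumor and slide cannot be told apart.

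All 5 members were well above background on every gland array, with 160 of 160 spots called, and the SD over the spots of a miRNA was at most 0.16. miR-16, the member that both the Dleu2 and the Smc4 locus produce, had levels of 7.75 and 7.53 in FVB, 7.30, 8.14 and 7.38 in Balb/C and 6.93, 6.93 and 7.22 in FVB129B6 glands. Both FVB arrays and all 3 Balb/C arrays lay above all 3 FVB129B6 arrays, and Balb/C replicate 2 was the highest of the 8. miR-15b, made beside miR-16 in Smc4, had levels of 5.56 and 6.41 in FVB, 5.13, 6.07 and 5.26 in Balb/C and 5.22, 5.19 and 5.55 in FVB129B6 glands. Here FVB replicate 2 and Balb/C replicate 2 stood above the other 6 arrays, and the range over the glands, 1.28, was the widest of the 5 members.

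miR-15a, made beside miR-16 in Dleu2, had levels of 5.60 and 5.10 in FVB, 5.02, 5.36 and 5.001 in Balb/C and 5.26, 5.04 and 5.33 in FVB129B6 glands. The strains overlapped, and the range of 0.60 was matched by miR-497 alone. miR-195 had levels of 6.18 and 6.36 in FVB, 6.66, 6.54 and 6.91 in Balb/C and 6.61, 6.33 and 6.76 in FVB129B6 glands. All Balb/C arrays lay above both FVB arrays, while 1 of the 3 FVB129B6 arrays lay between them. miR-497, the neighbour of miR-195, had levels of 5.03 and 5.53 in FVB, 5.28, 5.02 and 5.45 in Balb/C and 5.03, 4.92 and 5.31 in FVB129B6 glands, again with all strains overlapping.

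**Figure D1:**
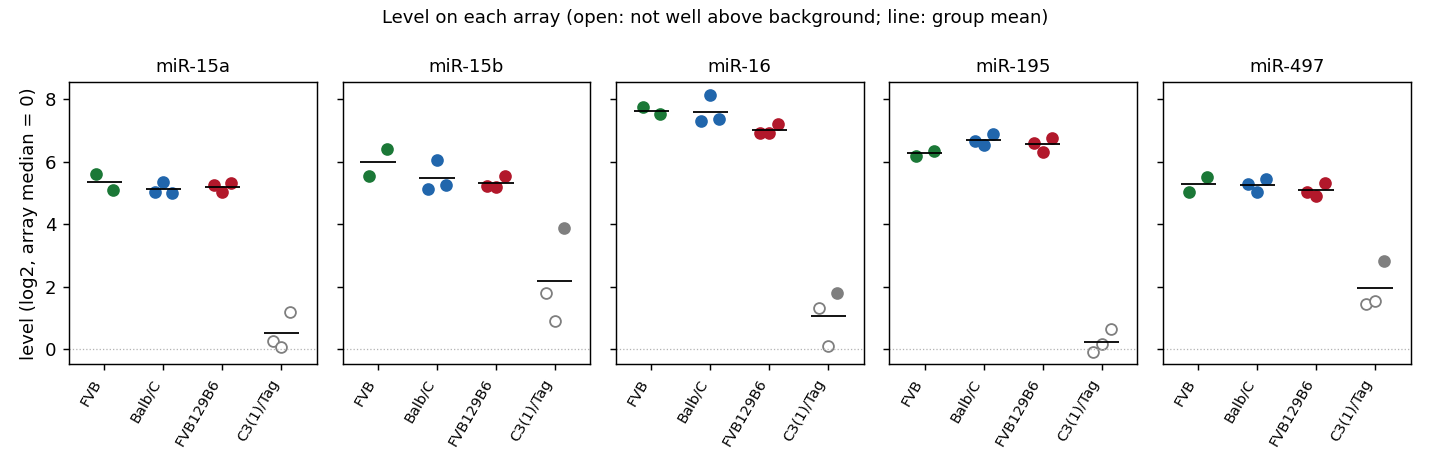
Level of each member (log2, array median at 0) on every array, by strain or tumor. Filled points were well above background, open points were not, and the line is the group mean. The 5 members sat between 4.92 and 8.14 on all 8 gland arrays and at or below 3.88 on the 3 tumor arrays, where only replicate 3 had filled points, for miR-15b, miR-16 and miR-497.

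No member passed the test between strains. The moderated F-test of limma asks whether any of the strain means differ. It called 46.0% of the 261 miRNAs tested at a Benjamini-Hochberg adjusted p of 0.05, and 0 of the 5 members. At an unadjusted p of 0.05 it held 142 of the 261 miRNAs and 0 of the 5 members. Their adjusted p ran from 0.124 for miR-16 to 0.703 for miR-497. The pairwise contrasts also called 0 members, against 37.9% of all miRNAs between Balb/C and FVB, 39.5% between FVB129B6 and FVB and 3.45% between Balb/C and FVB129B6. The first pair of contrasts share the 2 FVB arrays. miR-16 was lower in FVB129B6 than in Balb/C by 0.58 (95% interval 0.01 to 1.15, unadjusted p = 0.0477, adjusted p = 0.233, limma), with no overlap between the 3 and the 3 arrays. In this contrast 55 of the 261 miRNAs had an unadjusted p of at most 0.05, beside 1 of the 5 members. How many of the 261 did not overlap is not given. The miR-16 difference between FVB129B6 and FVB was -0.62 (-1.25 to 0.02, adjusted p = 0.106, limma). Leaving out Balb/C replicate 2 brought that adjusted p to 0.0336. For miR-15b the difference between Balb/C and FVB was -0.50, with an interval from -1.33 to 0.33. These intervals allow differences of about 1 log2 unit in miR-15b, so the test does not show equal levels.

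With the array median, miR-195 alone of the members had a mean above that of FVB in the other strains, and its call turned on the scaling. It was higher in Balb/C than in FVB by 0.43 (95% interval -0.03 to 0.89, adjusted p = 0.119, limma), where the median difference of all 261 miRNAs was -0.48. In FVB129B6 it was higher than in FVB by 0.30 (-0.17 to 0.76, adjusted p = 0.266, limma), where the median of all was -0.39. A shift common to all miRNAs of an array does not change the order of their differences. In that order miR-195 stood at place 41 of 261 from the highest between Balb/C and FVB and at place 51 between FVB129B6 and FVB. miR-497 stood at 76 and 105, miR-16 at 78 and 157, miR-15a at 103 and 96 and miR-15b at 136 and 168. With arrays scaled on their 75th percentile the median of all miRNAs came to -0.05 and -0.03, and miR-195 was called higher than in FVB in both strains, by 0.86 (adjusted p = 0.0239) and 0.66 (adjusted p = 0.0436, limma). Quantile normalization, normexp background correction and scaling on the miRNAs measured on every array called it as well, with differences of 0.75 to 1.19 in Balb/C and 0.60 to 1.01 in FVB129B6. Normexp also called miR-497 higher, by 0.81 and 0.55. The FVB arrays were the dimmest of the glands, and the part of that in the median difference of all miRNAs was not tested.

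**Figure D2:**
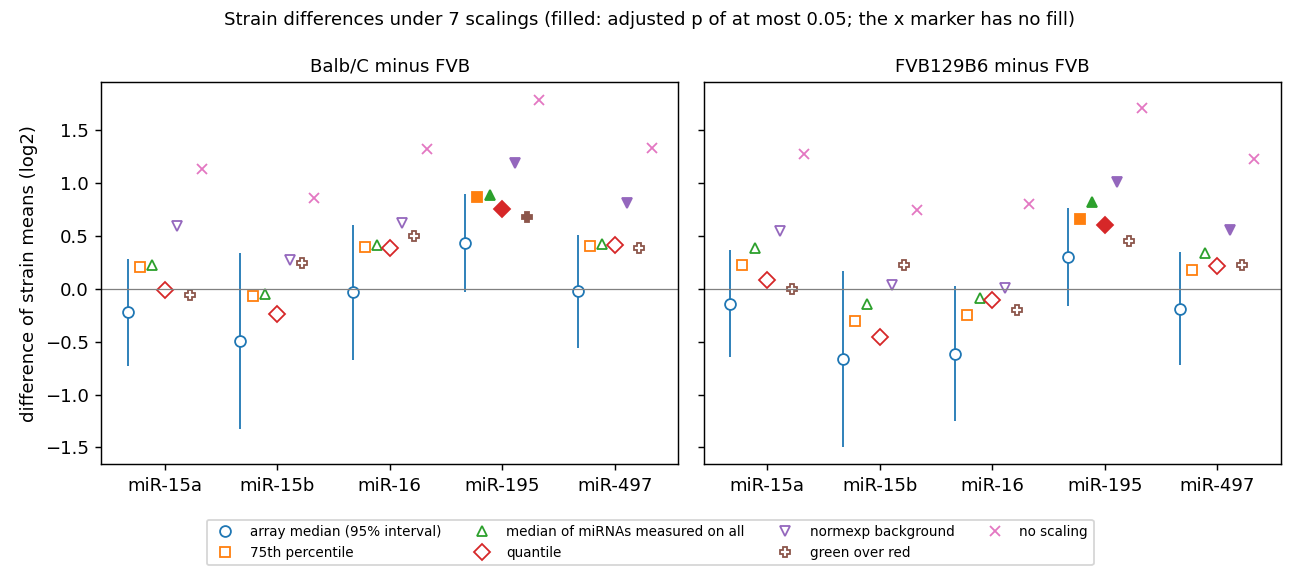
Difference of strain means (log2) of each member from FVB, for Balb/C (left) and FVB129B6 (right), under 7 ways of scaling the arrays. Filled symbols passed the test, crosses (no scaling) passed for all 5 members, and lines are 95% intervals of the main scaling. With no scaling the median difference of all 261 miRNAs was 0.87 (left) and 1.02 (right). miR-195 lay above 0 under every scaling shown, from 0.43 to 1.78 in Balb/C, and miR-195 and miR-497 were the members with filled symbols.

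Some tissue markers moved with the strains or with single arrays, and others overlapped between strains. The summed level of the 3 erythroid miRNAs (miR-451, miR-144 and miR-486) was 9.53 and 9.61 on the FVB arrays, 7.67 to 8.72 in Balb/C and 6.83 to 7.39 in FVB129B6. That of the 3 skeletal muscle miRNAs on the array (miR-1, miR-133b and miR-206) was 3.64 and 6.02 in FVB, 9.17 to 9.97 in Balb/C and 8.45 to 8.62 in FVB129B6. The 4 white blood cell miRNAs on the array (miR-142-5p, miR-150, miR-155 and miR-223) summed to 8.40 on Balb/C replicate 2 and to 5.27 to 6.16 on the other gland arrays. Balb/C replicate 2 was also the array with the highest miR-16 and the second highest miR-15b. The summed level of the 7 epithelial miRNAs was 8.77 and 9.80 in FVB, 8.06 to 8.94 in Balb/C and 8.90 to 9.27 in FVB129B6. The epithelial sums overlapped between strains. miR-143 and miR-145 (smooth muscle, stroma, myoepithelium) summed to 9.47 and 10.11 in FVB, 8.96 to 9.40 in Balb/C and 9.04 to 9.27 in FVB129B6. The 1 endothelial miRNA on the array, miR-126-5p, was well above background on 6 of the 8 glands. All members of the other lists were well above background on all 8 glands. The part of these lists in the family's differences was not tested.

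Differences between members on the same array are not changed by subtracting 1 value from a whole array, as the array median and the 75th percentile do. Quantile normalization, normexp and division by red can change them. The difference between 2 probes has no meaning of its own, since probes differ in brightness, but its change between arrays can be compared. For each of the 10 pairs of members an exact permutation test shuffled the strain labels of the 8 glands over all 560 relabelings. No pair passed after adjustment over the 10 pairs. The test statistic has no direction. The smallest p-values were 0.025 for miR-195 minus miR-497 and 0.0286 for miR-15a minus miR-16 in the exact test, both 0.143 after adjustment. miR-195 minus miR-497 was 0.84 and 1.14 in FVB, 1.38 to 1.52 in Balb/C and 1.41 to 1.58 in FVB129B6 glands. Both FVB arrays lay below the other 6. miR-15a minus miR-16 was -2.43 and -2.15 in FVB, -2.78 to -2.28 in Balb/C and -1.89 to -1.67 in FVB129B6, so that all FVB129B6 arrays lay above the other 5. Leaving out Balb/C replicate 2 brought 2 pairs past the threshold, miR-15a minus miR-195 and miR-15b minus miR-497 (both with an adjusted p of 0.0476, exact permutation test).

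**Figure D3:**
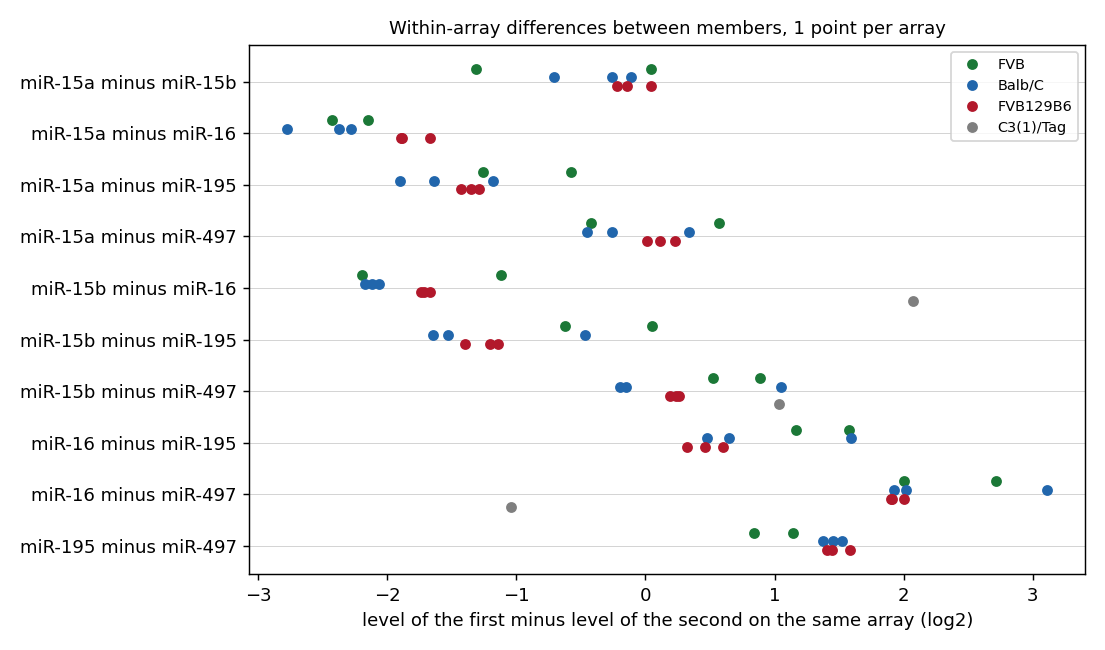
Level of one member minus level of another on the same array (log2), 1 point for each array on which both were well above background. For miR-195 minus miR-497 both FVB points lie left of all other glands, and for miR-15a minus miR-16 the 3 points of FVB129B6 lie right of the rest. The tumor points are those of replicate 3, the 1 tumor array with pairs measured, and in 2 of 3 pairs they lie outside the range of the glands.

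miR-195 and miR-497, whose genes are neighbours, had the most similar profiles in the glands. Likeness was taken as the root mean square (RMS) difference of levels over the 8 glands after each miRNA was centred on its mean, as a description. They were the closest of the 10 pairs, at 0.227, and stayed the closest in all 16 settings run, including each array left out. miR-15a with miR-16 (0.334) and miR-15b with miR-16 (0.343) came next. They were only just closer than miR-15a with miR-497 (0.346), and each lost its place when some single arrays were left out or green was divided by red. The pairs with the most similar probes were not the closest, with 0.431 for miR-15a and miR-15b and 0.482 for miR-16 and miR-195.

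**Figure D4:**
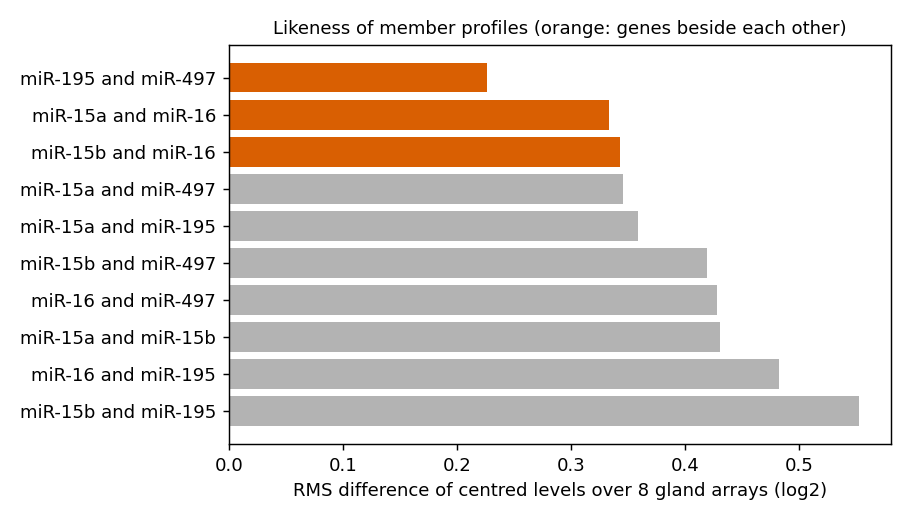
RMS difference of centred levels (log2) over the 8 gland arrays for each pair of members, smallest at the top. Orange bars are pairs whose genes lie beside each other. The 3 orange bars, from 0.227 to 0.343, are the smallest, and the next bar stands at 0.346.

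Among the 199 other miRNAs well above background on all 8 glands, the nearest to miR-195 were miR-181c (RMS difference 0.0875), miR-699 (0.123) and miR-712 (0.150). Nearest to miR-497 were miR-199b (0.0827), miR-125b (0.0920) and miR-199a (0.101), of which the miR-199 pair is known from mesenchymal tissue. Nearest to miR-15a were miR-487b (0.0983), miR-744 (0.132) and miR-26b (0.138). miR-15b and miR-16 had looser neighbours, miR-92 (0.203), miR-342 (0.208) and miR-146 (0.209) for the first and miR-425 (0.194), miR-324-5p (0.215) and miR-361 (0.220) for the second. The median RMS difference over the 199 miRNAs ran from 0.400 for miR-497 to 0.509 for miR-195. For all 5 members the nearest of these miRNAs was closer than any other member. That nearest miRNA was picked from 199 candidates and the nearest member from far fewer. The comparison therefore does not show that members are less alike than other miRNAs.

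In the tumors all 5 members were lower. Their levels on the 3 arrays were 0.25, 0.08 and 1.19 for miR-15a, 1.81, 0.91 and 3.88 for miR-15b, 1.32, 0.09 and 1.80 for miR-16, -0.07, 0.16 and 0.64 for miR-195 and 1.46, 1.56 and 2.84 for miR-497. Every tumor value lay below every gland value of the same member. How many of all miRNAs tested separated in this way is not given. Replicate 3, the tumor array with the most miRNAs measured, was the highest of the 3 for each member. miR-15a and miR-195 were well above background on 0 of the 3 tumor arrays, and miR-15b, miR-16 and miR-497 on replicate 3 alone. In all, 14 of the 60 member spots were well above background on tumor arrays, and the spots of a miRNA differed there with an SD of up to 1.67.

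Against the mean of the 3 strain means, limma with Benjamini-Hochberg adjustment called 90.4% of the 261 miRNAs. Those called lower in tumors were 52.5% of the 261, and 5 of the 5 members were among them. Against FVB glands alone, the strain of the tumor mice, 88.1% of the 261 were called, 52.5% of the 261 as lower, and again 5 members as lower. Both contrasts use the same 3 tumor arrays and the FVB arrays. The median of the 5 members was -4.72 and -4.84, that of all 261 miRNAs -0.83 and -1.04. miR-16 differed from the gland mean by -6.35 (standard error 0.33, adjusted p = 1.43e-08, limma) and stood at place 248 of 261. miR-195 differed by -6.27 (standard error 0.19, adjusted p = 2.58e-10, limma), at place 246. miR-15a differed by -4.72, miR-15b by -3.40 and miR-497 by -3.25, at places 226, 189 and 186. These fitted values hold tumor levels at background. All 5 members entered the fit through the gland arrays, since none was well above background on more than 1 tumor array. Where tumors are at background, the direction, size and place of a fitted difference follow the gland level. The members were bright in glands, with a mean of strain means of 5.21 (miR-497) to 7.43 (miR-16). Whether they fell more than other miRNAs as bright in glands was not tested.

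For the 2 members with no tumor array above background, only a bound can be given, against the lowest level that counted as well above background on each tumor array. miR-195 was at least 26.3-fold lower in tumors than the mean of the glands, and at least 22.2-fold lower than in FVB glands. miR-15a was at least 10.8-fold and 11.8-fold lower. The bounds depended strongly on the scaling. With quantile normalization they came to at least 2.72-fold and 2.02-fold for miR-195 and 1.16-fold and 1.14-fold for miR-15a. With the 75th percentile they were 3.35-fold and 2.35-fold for miR-195 and 1.37-fold and 1.24-fold for miR-15a.

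For miR-15b and miR-497 the call turned on the scaling. Both were called lower than the gland mean with the array median, the median of measured miRNAs (-0.87 and -0.72), normexp and no scaling. With the 75th percentile, which moved the median difference of all miRNAs from -0.83 to 2.14, they differed from the gland mean by -0.42 and -0.28 and neither passed the test. With quantile normalization the differences were 0.10 and 0.54, also not called. miR-16, miR-195 and miR-15a were called lower under all scalings of the green signal. Dividing green by red left 2 members called lower, miR-195 (-0.84) and miR-497 (-1.62). There miR-16 came to 0.33, miR-15b to 0.67 and miR-15a to -0.21, and none of these was called. The share of all miRNAs called under these other settings is not given.

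**Figure D5:**
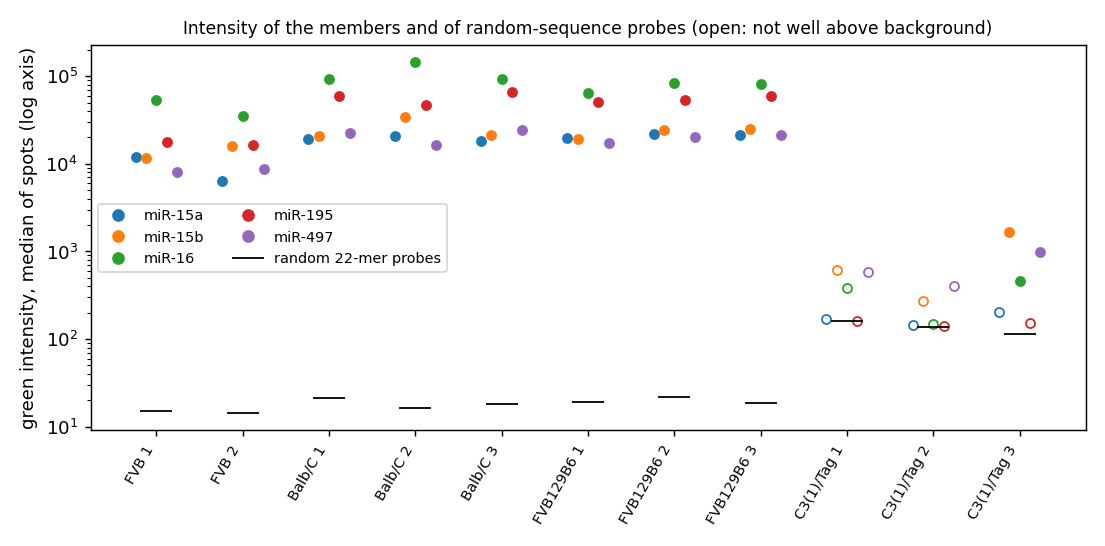
Green intensity of each member (median of its spots, log axis) on each array, with the median of the random 22-base probes as a black bar. On the gland arrays the members lie between 6370 and 144500, far above bars at 14.4 to 21.9. On the tumor arrays the bars rise to 114 to 159.5, and miR-15a and miR-195, at 142.5 to 204.5, lie close to them.

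The intensities show where the tumor signal stood. miR-195 read 16350 to 66150 units on the gland arrays and 142.5 to 161 on the tumor arrays, and miR-16 read 35100 to 144500 and 149 to 460. miR-15b read 274.5 to 1670 on the tumor arrays, highest on replicate 3, against 11600 to 34050 in glands. On replicate 3, miR-15b minus miR-16 was 2.07, where the glands ran from -2.20 to -1.12, and miR-16 minus miR-497 was -1.04, where the glands ran from 1.90 to 3.12. miR-15b minus miR-497, at 1.03, lay within the range of the glands. Subtracting another value from the whole array would leave these differences as they are. They come from 1 array with no replicate, and 2 of the 4 miR-16 spots on it were well above background.

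miR-424, which shares the seed but comes from the X chromosome, passed no strain contrast (adjusted p of 0.873 to 0.936, limma). It was well above background on 0 of the 3 tumor arrays and at least 7.36-fold lower in tumors than the gland mean, a bound that could not be given with the 75th percentile or quantile normalization. A list of miRNAs tied to the cell cycle held 30 on the array besides the members, among them miR-424, let-7, the miR-17 and miR-34 families, miR-221, miR-222, miR-103 and miR-107, and all 30 were tested. In the F-test 14 of the 30 were called, beside 120 of all 261. Against FVB 16 of the 30 were called lower in Balb/C and 13 in FVB129B6, with 0 higher in both. Of all 261 miRNAs 84 and 82 were called lower and 15 and 21 higher. The list's medians were -0.62 and -0.54, beside -0.48 and -0.39 for all 261. The largest differences between Balb/C and FVB were those of miR-34a, which p53 induces (-1.30), miR-107 (-1.22), miR-103 (-1.17) and let-7e (-0.98). Between FVB129B6 and FVB they were those of let-7g (-1.09), miR-107 (-0.88), let-7d (-0.87) and let-7c (-0.83). None of the 30 was called between Balb/C and FVB129B6 by limma, where 4 had an unadjusted p under 0.05, beside 55 of all 261. In tumors 23 of the 30 were called lower and 2 higher than the gland mean, with a median of -3.02, beside 137 lower and 99 higher of all 261 and their median of -0.83. These fitted values hold tumor levels at background, since 14 of the 30 were well above background on 0 tumor arrays. The largest fitted differences were those of let-7f, miR-19b, let-7g and miR-106b. Only miR-19b was well above background on a tumor array, on 1 of 3, and its fitted difference was -6.37. The others were at least 62.3-fold (let-7f), 27.1-fold (let-7g) and 16.3-fold (miR-106b) lower, and with quantile normalization at least 6.58-fold, 3.12-fold and 1.68-fold.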

How the data were processed

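Total RNA was labeled with Hy3 and hybridized to the custom Agilent miRNA array. The authors deposited, for each of the 11 arrays, the Feature Extraction spot values (version 10.5.1.1 for glands, 9.5.1.1 for tumors), as green and red intensities from which the program had subtracted the background and in which it had balanced the dyes. They also deposited a table of log2 values of the green signal after global median normalization, used here as an alternative.

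Green intensities were log2 transformed, the array median over the plus-strand mouse spots was subtracted, and each miRNA took the mean of its 4 spots without outlier spots (2 of the 220 member spots). A miRNA was tested when at least 50% of its spots were well above background on at least 3 arrays of the fit, which held for 261 miRNAs in both fits. Strains were compared in a limma fit over 8 glands, and tumors in a fit over 11 arrays in 4 groups. P-values were adjusted after Benjamini-Hochberg and called at 0.05. Named were all members, for each member the 3 other miRNAs with the nearest gland profile, miRNAs with a shared seed or a probe within 6 edits, and up to 4 of the cell cycle list in each comparison. Members and lists were chosen with earlier results of these data known. The number of arrays limits the precision. The fits were tested on simulated data. Software was limma 3.58.1 in R 4.3.3, and pandas 2.3.3, numpy 2.4.6 and matplotlib 3.10.9 in Python 3.11.15.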

Additional observations from a re-analysis of the deposited data

Results flagged for a closer look

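The red channel, which was used only as a divisor of the green signal in 1 alternative and whose RNA the labels do not name, gave a signal for all 5 members on every gland array. The lowest red intensity on a gland array was 9555 for miR-15a, 27200 for miR-15b, 84150 for miR-16, 15050 for miR-195 and 6195 for miR-497. The median of the random 22-base probes in red was 14.4 to 23.55 there. On the tumor arrays red was far dimmer, as green was. The highest there was 251.5, 1010, 392, 160 and 1585 in the same order, with random probes at 125 to 158. In red, miR-497 was well above background on 3 tumor arrays, miR-15b and miR-16 on 1 and the others on 0. The part of the red channel in the tumor results was not tested. Each group held 2 or 3 arrays, too few for a test of single arrays that stand apart.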

How the results depend on the processing

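The calls between strains depended on the scaling. In place of 0 members, the F-test called 1 with the 75th percentile, 1 with the median of miRNAs measured on all arrays, 1 with quantile normalization, 2 with normexp and 4 with no scaling. For both contrasts with FVB these counts were 1, 1, 1, 2 and 5, and green over red gave 1 between Balb/C and FVB. With no scaling the median difference of all 261 miRNAs from FVB was itself 0.87 in Balb/C and 1.02 in FVB129B6. The share of all miRNAs called is not given for these settings or for those of the tumor calls below. The counts therefore show only how the calls depend on the processing. Leaving out 1 array gave 0 to 1 members between FVB129B6 and FVB (miR-16 without Balb/C replicate 2) and 0 in every other strain contrast. Tumor calls fell from 5 to 3 against the gland mean with the 75th percentile and with quantile normalization, and to 2 with green over red. Against FVB they fell to 3 with the 75th percentile, the median of miRNAs measured on all arrays and quantile normalization, to 1 with green over red, and to 3 with FVB and tumor arrays alone in the fit, where miR-15a and miR-195 were not tested. Leaving out single arrays left 5. Pairs of members passing between strains went from 0 to 1 when green was divided by red, and ran from 0 to 2 with 1 array left out. Of the 3 closest pairs of members, 3 were genomic neighbours, against 1 with green over red, 1 with the like-titled Balb/C arrays averaged, and 1 to 3 with an array left out.

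Signs also turned, between strains for differences that did not pass the test with the array median. Between Balb/C and FVB, miR-15a came to 0.21 with the 75th percentile, 0.22 with the median of measured miRNAs, 1.13 with no scaling and 0.59 with normexp. miR-16 came to 0.40, 0.41, 1.32 and 0.62, with 0.39 under quantile normalization and 0.49 with green over red, and miR-497 to 0.40, 0.42, 1.33 and 0.81, with 0.41 and 0.38. miR-15b came to 0.85 with no scaling, 0.27 with normexp and 0.24 with green over red. Between FVB129B6 and FVB, miR-15a came to 0.22, 0.38, 1.27 and 0.55 under the same 4 settings and 0.081 with quantile normalization, and miR-497 to 0.17, 0.33, 1.22 and 0.55, with 0.21 under quantile normalization and 0.22 with green over red. miR-15b came to 0.75 with no scaling, 0.032 with normexp and 0.22 with green over red, and miR-16 to 0.80 with no scaling and 0.0078 with normexp. Between Balb/C and FVB129B6, miR-15a came to 0.044 with normexp. With 1 array left out, Balb/C minus FVB ran from -0.47 to 0.026 for miR-15a, -0.30 to 0.12 for miR-16 and -0.27 to 0.22 for miR-497. FVB129B6 minus FVB ran from -0.39 to 0.11 for miR-15a and -0.44 to 0.055 for miR-497, and Balb/C minus FVB129B6 from -0.12 to 0.35 for miR-15b. In tumors, signs of differences called with the array median turned as well. Against the gland mean, miR-15b came to 0.10 and miR-497 to 0.54 with quantile normalization, and miR-15b to 0.67 and miR-16 to 0.33 with green over red. Against FVB, miR-497 came to 0.72 with quantile normalization, and miR-15b to 0.83 and miR-16 to 0.42 with green over red. The cause of these changes was not tested.

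With the replicate number as a block, 0 members were called between strains and 5 in tumors, as without it. Deviations of arrays with the same number had a mean correlation of 0.0440 over 15 pairs, ranging from -0.28 to 0.42. For arrays with different numbers the mean was -0.022 over 30 pairs, ranging from -0.51 to 0.28. These ranges overlap and the groups hold few arrays, so the correlations cannot decide whether the numbers pair the samples. A slide or scan block was not run, because each slide held glands or tumors alone. The requirement of a signal above background on every array left no member in the tumor fits. Other filters, the floor, the spot summary, the deposited table, the error model and the stricter threshold changed none of these counts.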
